A study of Mus musculus with 8 samples.

Results

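The 9 genes described here encode TGF-β and activin ligands, the latency proteins that hold TGF-β in the matrix, and a matrix protein named for its induction by TGF-β. They were Tgfb1, Tgfb2 and Tgfb3, Inhba, Ltbp1, Ltbp2, Ltbp3 and Ltbp4, and Tgfbi, taken by symbol, with no threshold on their values, from the 22609 gene symbols counted in every library. All 9 passed the filter on low counts. RNA was sequenced from immortalized mouse dental papilla cells, the mesenchyme that gives rise to odontoblasts and dental pulp, in 2 lines. The floxed line (iBmp2 fx/fx, labelled Bmp2 floxed/floxed) carried floxed Bmp2 alleles, and the knock-out line (iBmp2 ko/ko, labelled Bmp2 KO) had Bmp2 deleted. Each line gave 1 library after 6, 24, 48 and 72 h of culture, without a further treatment in the labels, so that 8 libraries were available and no genotype and time was repeated. The culture times therefore served as replicates, each genotype was 1 immortalized line, and p-values measured only the spread between these libraries. The age and strain of the source mice are not given in the sources used here, and the design text has 8 h where the library labels have 6 h. The question was which of these genes differed in level between the floxed and the knock-out line.

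TGF-β is made as a precursor whose propeptide stays bound to the mature dimer and keeps it from its receptors. Inside the cell this latent dimer is joined by a disulfide bond to a latent TGF-β binding protein, which anchors it to fibrillin microfibrils and fibronectin until integrins, proteases or thrombospondin release the ligand. Activins are dimers of inhibin β chains from the same superfamily and signal through their own receptors to the same SMAD proteins, whereas BMP2 signals through other SMADs. In the developing tooth, both TGF-β and activin from the mesenchyme are known signals to and within the dental papilla.

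The total on genes ran from 25890110 to 32415665 reads in a library. The floor of 3 counts used for a detectable level corresponded to 0.0925 to 0.116 on the counts-per-million scale (CPM, relative to the reads on genes), so all 9 genes lay above it in every library. Bmp2 itself had 1 read in the floxed 24 h library and none in the other 7, so its count could not check the labels. Neither line thus had a Bmp2 transcript above the floor, and the genotypes are compared here as lines. Of 12 dental mesenchyme markers, 10 reached 1 CPM in every library, while Barx1 and Lhx8 had at most 3 counts everywhere. The odontoblast markers summed to 0.958 to 2.50 CPM in floxed and 1.14 to 1.70 CPM in knock-out libraries, with Dspp and Ibsp at most at 3 counts, so the defining odontoblast transcripts were at or near 0. Of 6 epithelial, 4 endothelial and 5 haematopoietic markers counted, 0, 0 and 1 reached 1 CPM in every library, and Krt5, Amelx, Ambn, Ptprc and Itgam had at most 3 counts everywhere. Of 3 platelet markers Itga2b alone reached 1 CPM in every library, with Pf4 and Gp9 at most at 3 counts, platelets being a known rich source of TGF-β1.

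The library labelled knock-out, 24 h lay closer to the floxed 6 h library than to any other library, knock-out or floxed. Over all genes tested its root mean square difference from the floxed 6 h library was 0.151 on the log2 CPM scale, against 0.321 to 0.994 for the other 27 pairs of libraries. Over the 9 genes that distance was 0.182, against 0.390 to 1.87 for the other pairs. Their counts differed by a mean chi-square of 5.25 per gene, more than the value of 1 that sampling noise alone gives, and every other pair differed by at least 42.5. They were kept as separate libraries by their labels, and whether they hold separate cultures was not tested. The main comparisons therefore used the libraries of 6, 48 and 72 h, which are the times listed in the methods of the study, with 3 libraries per genotype. The 24 h values of the 9 genes are given beside them.

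Promoter sequences are shown for the members that the results turn on, Ltbp1, Ltbp2, Tgfbi and Inhba, so that they can be compared for the Smad binding element. Windows of 250 bases before the annotated start were taken from RefSeq (GRCm38.p6) and located in mm9 by an exact match, for 8 of the 9 genes and 11 starts. Ltbp1 and Ltbp4 gave more than 1 window each, and windows of Ltbp4 overlapped, so the 11 windows are not independent. The element was searched as CAGAC on both strands, so that GTCTG on the printed strand counts, beside the AP-1 site TGANTCA and the TATA box TATAAA. No match of 1 motif overlapped another in these windows. CAGAC occurred in 6 of the 11 windows, of Ltbp1 (both starts), Ltbp2, Ltbp3, Tgfb2 and Tgfbi, and in 42.2% of 32851 promoter windows of the same length. TATAAA occurred in 2 of the 11, of Inhba and Tgfb2, and in 12.4% of all windows, and TGANTCA in none of the 11 windows and 6.75% of all. The windows of both Ltbp1 starts and of Inhba are given whole, 5′ to 3′ on the strand of the gene, with motif matches in capitals.
Ltbp1 upstream start, chr17:75404619-75404868, plus strand: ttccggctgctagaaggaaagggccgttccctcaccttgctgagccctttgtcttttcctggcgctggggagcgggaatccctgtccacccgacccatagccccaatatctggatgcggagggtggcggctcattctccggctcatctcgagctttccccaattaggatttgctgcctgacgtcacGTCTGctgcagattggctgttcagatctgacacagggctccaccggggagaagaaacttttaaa
Ltbp1 downstream start, chr17:75577871-75578120, plus strand: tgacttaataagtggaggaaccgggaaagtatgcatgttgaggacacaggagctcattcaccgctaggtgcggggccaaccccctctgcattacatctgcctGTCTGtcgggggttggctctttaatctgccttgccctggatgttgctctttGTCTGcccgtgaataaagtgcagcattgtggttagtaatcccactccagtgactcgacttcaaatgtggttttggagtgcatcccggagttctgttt
Inhba, chr13:16103434-16103683, plus strand: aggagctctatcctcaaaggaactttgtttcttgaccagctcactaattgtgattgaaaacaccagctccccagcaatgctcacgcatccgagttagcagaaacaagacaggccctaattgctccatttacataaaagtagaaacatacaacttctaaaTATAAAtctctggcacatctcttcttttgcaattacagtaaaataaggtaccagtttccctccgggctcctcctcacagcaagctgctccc

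For Ltbp2 and Tgfbi, whose windows overlap annotated exons, 30 bases around single matches are given, again with the motif in capitals.
Ltbp2, chr12:86217629-86217658, minus strand: cgctggtccaggCAGACgccatctgtcttt
Ltbp2, chr12:86217600-86217629, minus strand: tccagtccccggGTCTGccctgtcgcccgc
Tgfbi, chr13:56710850-56710879, plus strand: agtagtggcgtgGTCTGggaggcgccggct
The Ltbp2 matches lay 205 and 176 bases before the RefSeq start and the Tgfbi match 85 bases before it, and a further Tgfbi match, not printed, lay 239 bases before it. A match describes these letters and was not tested as a binding site. In the mm9 annotation Ltbp2 lies on chr12:86124162-86217482 (minus strand), Ltbp1 on chr17:75404908-75791852 (plus), Tgfbi on chr13:56710920-56740923 (plus) and Inhba on chr13:16103684-16119044 (plus). Tgfb1 lies on chr7:26472021-26490096 (plus), Tgfb2 on chr1:188447065-188529871 (minus), Tgfb3 on chr12:87397694-87419991 (minus), Ltbp3 on chr19:5740904-5758532 (plus) and Ltbp4 on chr7:28090155-28122711 (minus). All are protein-coding genes, and reads were counted over exons.

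The plot of CPM by culture time gives the level of each gene in the 8 libraries.

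**Figure D1:**
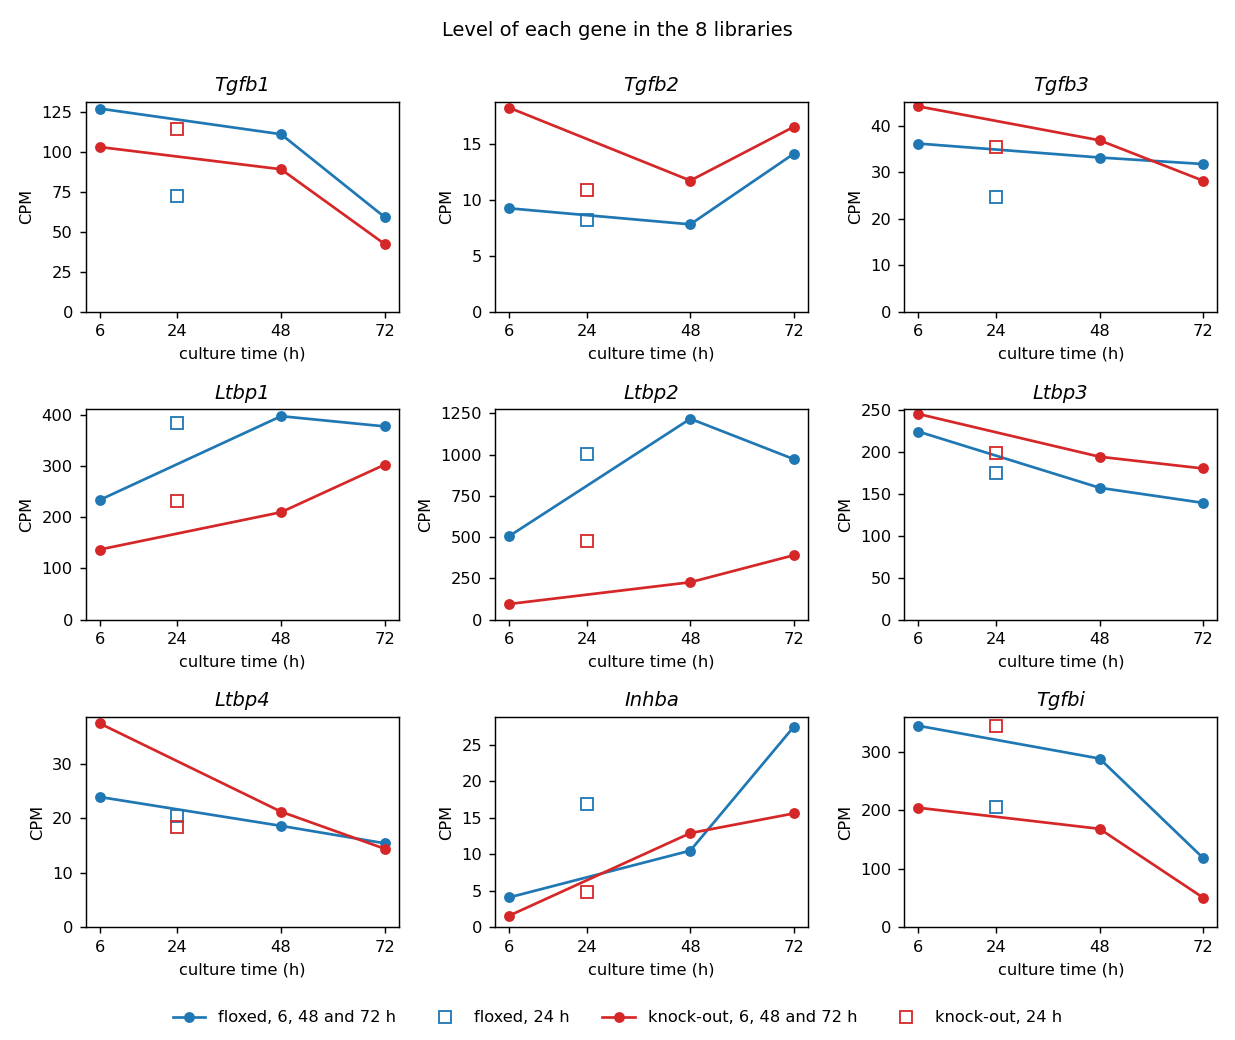
CPM (y axis) of each of the 9 genes against culture time in hours (x axis). Filled circles joined by lines are the libraries of 6, 48 and 72 h, open squares those of 24 h, blue floxed and red knock-out, 1 library per point. All 4 knock-out Ltbp2 levels, 94.1 to 477 CPM, lie below all 4 floxed levels, 505 to 1217 CPM, while for the other 8 genes the genotypes overlap.

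Ltbp2 differed most between the genotypes. Its transcript, which codes for a microfibril protein of the LTBP family that, unlike the other LTBPs, does not bind latent TGF-β, was 3.76-fold lower in knock-out cells over 6, 48 and 72 h. Ltbp1 and Tgfbi were also lower and Tgfb2 was higher on average, by smaller amounts. Tgfb1, Tgfb3, Ltbp3, Ltbp4 and Inhba differed little against their spread over time. Without a block for culture time, 0 of the 9 genes passed the limit of adjusted p ≤ 0.05 in the quasi-likelihood test of edgeR after Benjamini-Hochberg adjustment, which 2.22% of the 13121 genes tested passed. By the cutoff for a DEG in the text of the study, a log2 fold change over 1 in size with p under 0.05, taken here as an unadjusted p, 1 of 9 was downregulated, Ltbp2, where 7.35% of all genes passed in either direction. Captions of the study name a Q value instead, under which 0 of the 9 passed. In DESeq2, 1 of the 9 passed the adjusted limit, again Ltbp2, against 6.65% of all genes.

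Same-time libraries shared much of their deviation from the genotype means, so that culture time paired them, and a fit with time as a block is given beside the unblocked one. With the block, 4 of the 9 genes passed the adjusted limit in edgeR, and all 4, Tgfb1, Ltbp1, Ltbp2 and Tgfbi, were lower in knock-out cells. That limit was passed by 22.7% of all genes in the blocked fit, 11.3% as higher and 11.4% as lower. When the block was fitted over all 8 libraries, 0 of 9 passed, against 0.337% of all genes, while 4 (Inhba, Ltbp1, Ltbp2 and Tgfb2) had an unadjusted p under 0.05 in edgeR, against 24.8% of all genes. The median log2 fold change without the block was -0.34 for the 9 genes and 0.03 for all genes tested. In cells in bulk, a lower share of cells with a transcript and less of it per cell cannot be told apart.

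**Figure D2:**
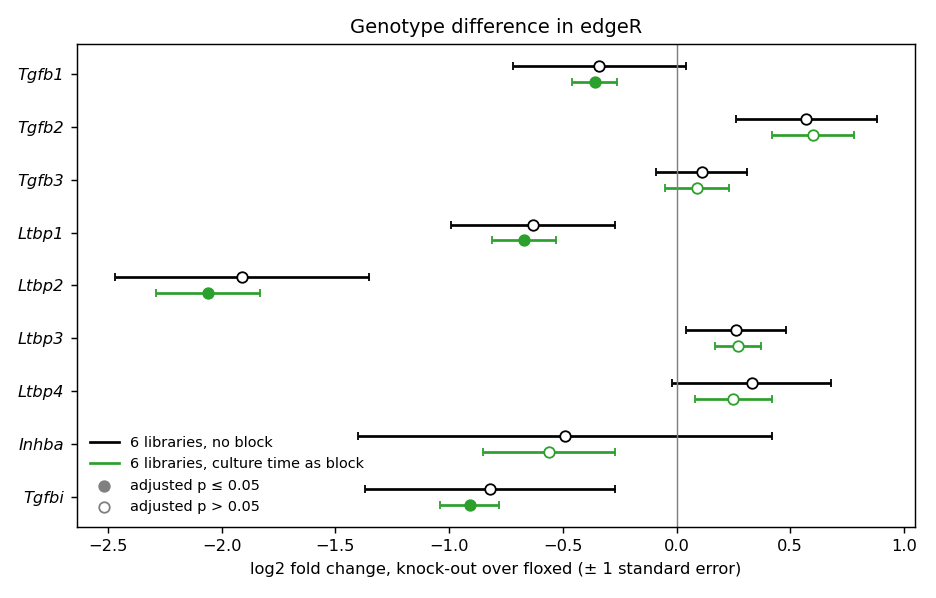
Log2 fold change of knock-out over floxed cells (x axis) for each gene (y axis) in edgeR over the 6 libraries of 6, 48 and 72 h, without (black) and with (green) culture time as a block. Bars are 1 standard error, and filled symbols mark an adjusted p of at most 0.05. Ltbp2 lies farthest from 0, at -1.91 and -2.06, and the bars are shorter with the block.

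Among the ligands, Tgfb1 encodes the most widely expressed TGF-β, which odontoblasts store in dentin. Floxed cells had 127, 72.4, 111 and 59.2 CPM at 6, 24, 48 and 72 h, and knock-out cells 103, 114, 89.1 and 42.4 CPM. At 6, 48 and 72 h the knock-out library was the lower of each pair, but at 24 h it was the higher, and the ranges overlapped. The mean over 6, 48 and 72 h was 99.3 ± 35.6 CPM in floxed and 78.3 ± 31.9 CPM in knock-out cells (SD, n = 3 each). The log2 fold change was -0.34 (SE 0.38, adjusted p = 0.774 in edgeR's quasi-likelihood test). With the block it was -0.36 (SE 0.10) and passed the limit, with an adjusted p of 0.0406 in the same test, which did not hold when the 6, 48 or 72 h libraries were left out in turn. Over all 8 libraries without a block, with the library labelled knock-out, 24 h included, the log2 fold change was -0.10 (adjusted p = 0.927 in edgeR).

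Tgfb2 encodes the isoform that needs the co-receptor betaglycan for high-affinity binding. Its CPM was 9.23, 8.23, 7.80 and 14.1 in floxed cells at 6, 24, 48 and 72 h and 18.2, 10.9, 11.7 and 16.5 in knock-out cells. The knock-out library was the higher of the pair at 6, 48 and 72 h, and so was the library labelled knock-out, 24 h. The floxed 72 h level exceeded 2 knock-out levels, so the groups overlapped. Over 6, 48 and 72 h the means were 10.4 ± 3.28 and 15.5 ± 3.36 CPM (SD, n = 3 each). The log2 fold change was 0.57 (SE 0.31, adjusted p = 0.489 in edgeR), and with the block it was 0.60 (SE 0.18, adjusted p = 0.0505 in edgeR), just beyond the limit.

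Tgfb3, the isoform best known for fusion of the palate, varied least among the 9 genes over the 8 libraries. Floxed cells had 36.2, 24.7, 33.2 and 31.8 CPM and knock-out cells 44.2, 35.5, 36.9 and 28.2 CPM at 6, 24, 48 and 72 h. The order of the genotypes changed between 48 and 72 h, and the ranges overlapped. The means over 6, 48 and 72 h were 33.8 ± 2.27 and 36.4 ± 8.02 CPM (SD, n = 3 each), with a log2 fold change of 0.11 (SE 0.20, adjusted p = 0.870 in edgeR).

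Inhba encodes the inhibin βA chain, of which activin A is a dimer, and an early signal of the dental mesenchyme to the tooth bud. Its CPM was 4.08, 16.9, 10.5 and 27.5 in floxed cells at 6, 24, 48 and 72 h, and 1.57, 4.78, 12.9 and 15.6 in knock-out cells. The knock-out library was lower at 6, 24 and 72 h and higher at 48 h, and the ranges overlapped. The spread over 6, 48 and 72 h was wide in both lines, with an SD of 12.1 CPM in floxed and 7.45 CPM in knock-out cells (n = 3 each). The log2 fold change was -0.49 (SE 0.91, adjusted p = 0.871 in edgeR) and -0.56 (SE 0.29, adjusted p = 0.203) with the block. The blocked value was -0.27 without the 6 h, -1.05 without the 48 h and -0.46 without the 72 h libraries, with adjusted p of 0.564, 0.0166 and 0.497 in edgeR. Without the block the direction turned when the knock-out 6 h library (0.02) or the floxed 72 h library (0.50) was left out.

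Among the latency proteins, Ltbp1 encodes the form that carries all 3 latent TGF-β isoforms into the matrix. Floxed cells had 234, 384, 398 and 378 CPM at 6, 24, 48 and 72 h, and knock-out cells 137, 232, 210 and 303 CPM. The knock-out library was the lower of the pair at 6, 48 and 72 h. So was the library labelled knock-out, 24 h, at 232 CPM, near the floxed 6 h level of 234 CPM. The groups overlapped only because the floxed 6 h level lay below the knock-out 72 h level. The means over 6, 48 and 72 h were 337 ± 89.6 and 217 ± 82.9 CPM (SD, n = 3 each), a log2 fold change of -0.63 (SE 0.36, adjusted p = 0.502 in edgeR). With the block the log2 fold change was -0.67 (SE 0.14, adjusted p = 0.0129 in edgeR). Ltbp1 passed this limit also without the 48 or the 72 h libraries, but not without those of 6 h. In these 3 blocked fits, without 6, 48 or 72 h, 13.9%, 19.6% and 11.7% of all genes passed, and 2, 4 and 3 of the 9 genes.

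Ltbp2 levels were 505, 1001, 1217 and 972 CPM in floxed cells at 6, 24, 48 and 72 h and 94.1, 477, 226 and 390 CPM in knock-out cells. No knock-out library reached the lowest floxed library, also with the 24 h libraries included, and Ltbp2 was the 1 gene of the 9 without overlap. Over all 8, the closest levels were 477 CPM in the library labelled knock-out, 24 h and 505 CPM in the floxed 6 h library. Those libraries were also the nearest pair over all genes tested. Groups did not overlap for 19.3% of all genes over the 6 libraries and for 3.51% over all 8. At 6, 48 and 72 h the knock-out level was 18.6%, 18.6% and 40.1% of the floxed level. The means were 898 ± 362 and 237 ± 148 CPM (SD, n = 3 each), and the log2 fold change was -1.91 (SE 0.56, adjusted p = 0.186 in edgeR's quasi-likelihood test). With the block it was -2.06 (SE 0.23, adjusted p = 0.00117 in edgeR), 4.16-fold lower, and it stayed past the adjusted limit without any 1 of the 3 culture times. Without the knock-out 72 h library the unblocked difference was 5.76-fold, with an adjusted p of 0.0584 in edgeR, and over the left-out libraries that p ran from 0.0584 to 0.526. Over all 8 libraries the adjusted p in edgeR was 0.483 without and 0.0691 with the block.

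Exons of Ltbp2 share 764 of 8193 bases (9.33%) with D030025P21Rik on the opposite strand. The strand setting of the counting is not given in the sources used here, so how reads of the shared stretch were assigned is not known. The overlapping gene had 15.4 ± 5.77 CPM in floxed and 3.95 ± 2.29 CPM in knock-out cells (SD, n = 3 each), far below Ltbp2 in both. Its part in the Ltbp2 count was not tested.

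Ltbp3 encodes a latency protein whose loss gives thin enamel and skeletal defects. Its CPM was 224, 175, 157 and 139 in floxed and 245, 198, 194 and 180 in knock-out cells at 6, 24, 48 and 72 h. Each knock-out library lay above its floxed counterpart by log2 ratios from 0.13 at 6 h to 0.38 at 72 h, and the ranges of the genotypes overlapped. The 24 h ratio used the library labelled knock-out, 24 h, which lay near the floxed 6 h library over all genes. The log2 fold change was 0.26 (SE 0.22, adjusted p = 0.692 in edgeR) and 0.27 (SE 0.10, adjusted p = 0.0977) with the block.

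Ltbp4, which binds latent TGF-β1 weakly and is needed for elastic fibres, had 23.9, 20.5, 18.6 and 15.4 CPM in floxed cells and 37.4, 18.3, 21.2 and 14.4 CPM in knock-out cells at 6, 24, 48 and 72 h. Knock-out cells were higher at 6 and 48 h and lower at 24 and 72 h. The log2 fold change of 0.33 (SE 0.35, adjusted p = 0.758 in edgeR) rested on the knock-out 6 h library, and without it the value was -0.10.

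Tgfbi encodes an extracellular matrix protein that binds collagen and integrins, and it is read here as a gene known to respond to TGF-β. Floxed cells had 344, 205, 288 and 118 CPM at 6, 24, 48 and 72 h, and knock-out cells 204, 343, 168 and 50.3 CPM. At 6, 48 and 72 h the knock-out library had log2 ratios of -0.75, -0.78 and -1.23 to the floxed one, and at 24 h 0.74. The means without 24 h were 250 ± 118 and 141 ± 80.4 CPM (SD, n = 3 each), a log2 fold change of -0.82 (SE 0.55, adjusted p = 0.584 in edgeR). With the block it was -0.91 (SE 0.13, adjusted p = 0.00305 in edgeR), and it stayed past the limit without any 1 of the 3 culture times. Over all 8 libraries without a block it was -0.34 (adjusted p = 0.815 in edgeR).

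The ratios at each culture time show which members kept their direction.

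**Figure D3:**
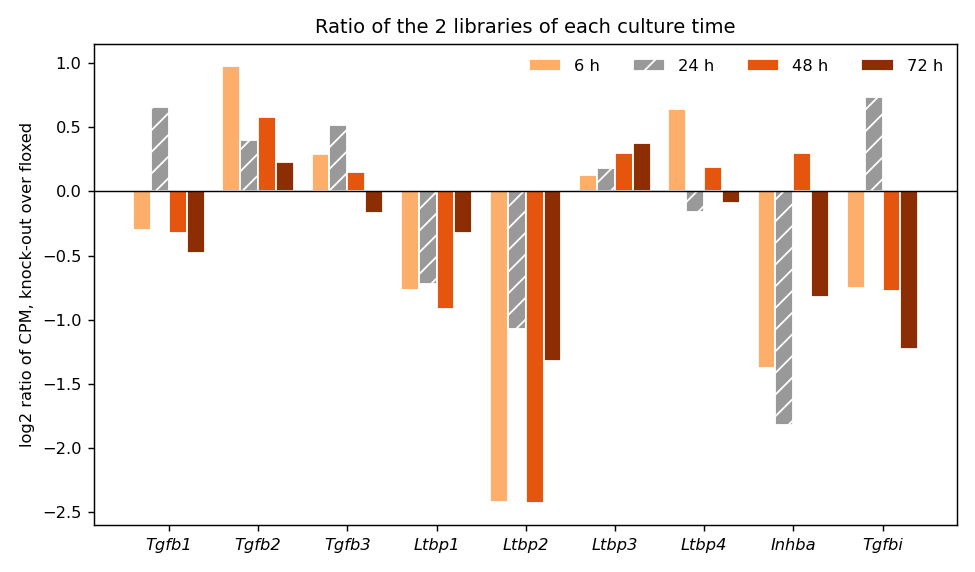
Log2 ratio of CPM in knock-out over floxed cells (y axis) for each gene (x axis), 1 bar per culture time, with no replicates. The hatched grey bars are the 24 h ratios, which use the library labelled knock-out, 24 h. Ltbp1 and Ltbp2 are below 0 and Tgfb2 and Ltbp3 above 0 at all 4 times, while Tgfb1 and Tgfbi are above 0 only at 24 h.

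At 24 h the knock-out library was close to the floxed 6 h library for most of these genes. Tgfbi was 343 against 344 CPM, Ltbp1 232 against 234 CPM and Ltbp2 477 against 505 CPM. Of the 9 genes, 5 (Tgfb3, Ltbp1, Ltbp2, Inhba and Tgfbi) were nearer to the floxed 6 h library than to any other. The largest departure was Ltbp4, at 76.5% of its floxed 6 h level.

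Over culture time, Inhba, Ltbp2 and Ltbp1 had higher and Ltbp3 and Ltbp4 lower levels at 72 than at 6 h in both lines, although none of these slopes passed the adjusted limit in edgeR. Inhba was 6.73-fold higher at 72 than at 6 h in floxed and 9.97-fold higher in knock-out cells. Ltbp2 was 1.93-fold and 4.15-fold higher, and Ltbp1 1.62-fold and 2.21-fold higher. Ltbp4 was 1.55-fold and 2.59-fold lower at 72 than at 6 h, and Tgfb1 was 2.15-fold and 2.44-fold lower. Tgfbi was 2.92-fold and 4.06-fold lower, and Tgfb3 1.14-fold and 1.57-fold lower. The lines went opposite ways for Tgfb2, 1.52-fold higher in floxed and 1.11-fold lower in knock-out cells.

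In a fit of log2 culture time with genotype over the 6 libraries, 0 of 9 genes passed the adjusted limit in edgeR, as did 0% of all genes. At an unadjusted p under 0.05, 5 of 9 passed, Inhba, Ltbp1, Ltbp2, Ltbp3 and Ltbp4, against 21.1% of all genes. The slope per doubling of time was 0.82 on the log2 scale for Inhba (SE 0.12, adjusted p = 0.155 in edgeR's quasi-likelihood test), 0.44 for Ltbp2 (SE 0.09) and 0.27 for Ltbp1 (SE 0.06). For Ltbp4 it was -0.24 (SE 0.06) and for Ltbp3 -0.14 (SE 0.04). DESeq2 called 4 of the 9, Inhba, Ltbp1, Ltbp2 and Ltbp4, at the adjusted limit, against 7.09% of all genes. Without the knock-out 48 h library edgeR called 1, Inhba, with an adjusted p of 0.0410, where 1.47% of all genes passed. The slopes of the genotypes were compared by an interaction term, for which 0 of 9 genes passed the adjusted or the unadjusted limit in edgeR or DESeq2, where 0.480% of all genes had an unadjusted p under 0.05 in edgeR.

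Inhba and Ltbp2 varied most over the 8 libraries, with nearly equal SDs of log2 CPM, 1.23795 and 1.23758, and Inhba, as the larger, was taken for the search. The 3 tested genes with the most similar centred pattern over the 8 libraries were Nav3, Ptx3 and Mdn1, at root mean square differences of 0.325, 0.327 and 0.351 on the log2 scale. Ptx3, a secreted pentraxin, had 152, 595, 514 and 1150 CPM in floxed cells at 6, 24, 48 and 72 h and 130, 152, 500 and 576 CPM in knock-out cells.

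Levels between genes were compared as RPKM, the CPM per kilobase of exon. In floxed cells Ltbp2 had the highest mean level, at 110 ± 44.2 RPKM, followed by Tgfbi at 84.2 ± 39.7 (SD, n = 3 each), and their ranges overlapped. Tgfb1, Ltbp3 and Ltbp1 came next at 38.8 ± 13.9, 33.3 ± 8.62 and 31.5 ± 8.38 RPKM, within each other's spread. Tgfb3 at 9.97 ± 0.670, Inhba at 7.08 ± 6.11, Ltbp4 at 2.99 ± 0.665 and Tgfb2 at 2.14 ± 0.676 RPKM formed the low end. With the longest transcript as the length, Ltbp1 stood above Tgfb1 in floxed cells, at 50.5 against 45.6 RPKM.

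In knock-out cells the order began with Tgfbi at 47.5 ± 27.1, Ltbp3 at 39.7 ± 6.55, Tgfb1 at 30.6 ± 12.5 and Ltbp2 at 28.9 ± 18.1 RPKM (SD, n = 3 each). Ltbp2 thus moved from the first to the fourth place, and these 4 genes overlapped. Tgfb1 made up most of the ligand transcript in both lines, from 65.3% to 79.8% of the summed RPKM of Tgfb1, Tgfb2 and Tgfb3 in the floxed libraries of 6, 48 and 72 h and from 58.6% to 72.3% in the knock-out ones. Tgfb3 gave 17.2% to 26.5% and 22.6% to 29.4%. Tgfb2 gave the rest, 2.93% to 8.19% and 5.02% to 12%. Of the summed RPKM of the 4 latency genes Ltbp2 gave 47.3%, 67.9% and 64.8% in floxed cells at 6, 48 and 72 h and 14.9%, 31.4% and 42.2% in knock-out cells, without overlap. At 24 h its share was 62.7% in the floxed library and 48.2% in the library labelled knock-out, which lay above the lowest floxed share.

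**Figure D4:**
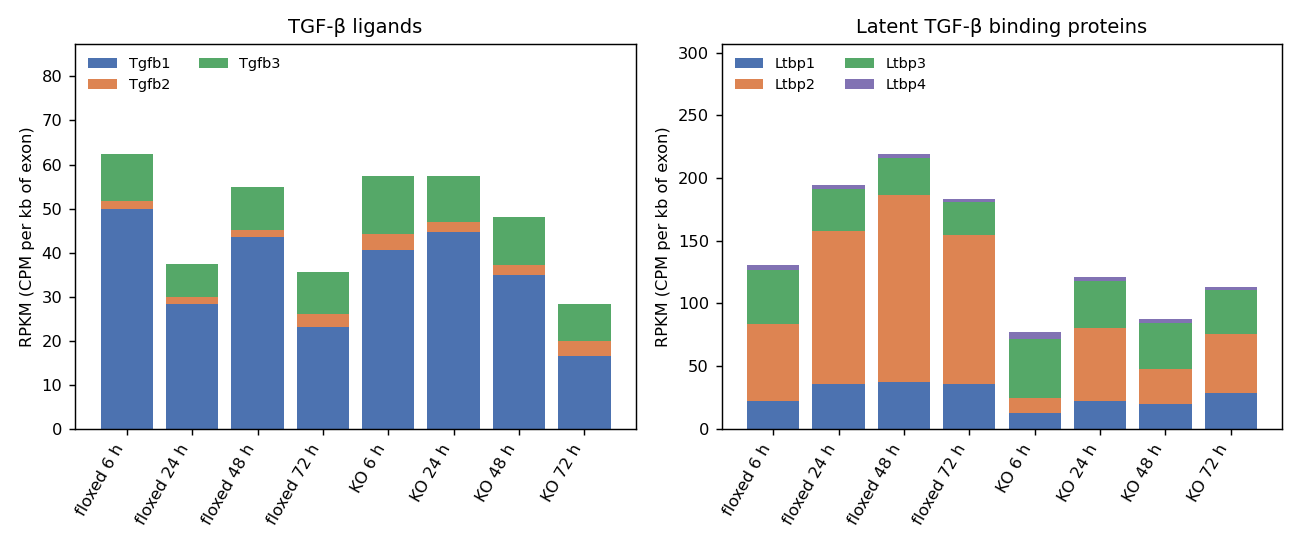
RPKM (y axis) of the 3 TGF-β ligands (left) and the 4 latent TGF-β binding proteins (right), stacked, in each of the 8 libraries (x axis), with KO for knock-out. Tgfb1 fills most of each ligand bar, and the Ltbp2 segment is 47.3% to 67.9% of the latency sum in floxed and 14.9% to 42.2% in knock-out libraries of 6, 48 and 72 h.

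The summed RPKM of the 4 latency genes over that of the 3 ligands was 2.09, 5.22, 3.99 and 5.16 in floxed cells at 6, 24, 48 and 72 h. It was 1.35, 2.11, 1.82 and 3.98 in knock-out cells. The knock-out ratio was the lower of the pair at each time, at 24 h in the library labelled knock-out, 24 h, and the ranges overlapped. That order rested on Ltbp2, whose protein does not carry TGF-β. With Ltbp1, Ltbp3 and Ltbp4 alone the ratio was 1.10, 1.95, 1.28 and 1.82 in floxed cells and 1.15, 1.09, 1.25 and 2.30 in knock-out cells at 6, 24, 48 and 72 h. The knock-out ratio was then higher at 6 and 72 h and lower at 24 and 48 h. These sums weigh transcripts and say nothing of secreted protein.

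Of 61 other genes of TGF-β and activin signalling counted in the tables, 53 passed the filter, and 4 passed the adjusted limit without the block, 1 higher (Fbn2, which was tested only because of its knock-out level) and 3 lower in knock-out cells, against 0.915% and 1.30% of all genes. With the block 8 were higher and 20 lower, against 11.3% and 11.4% of all genes. Over all 8 libraries 0 of 52 passed without the block in edgeR, as did 0% of all genes, and 6 passed the unadjusted rule, against 3.55% of all genes. With the block over all 8 libraries 0 of 52 passed as well, against 0.337% of all genes, so that each blocked call given next for the pathway was lost there, and 23 had an unadjusted p under 0.05, against 24.8% of all genes. DESeq2 called 12 of 53 without the block, against 6.65% of all genes. Their median log2 fold change without the block was -0.24.

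Of 5 other ligands and subunits, Gdf15, a stress-induced member of the superfamily, was downregulated from 73.9 ± 19.6 to 24.1 ± 0.641 CPM (SD, n = 3 each, adjusted p = 0.0171 in edgeR). Inha, the inhibin α chain that diverts βA chains from activin, was 3.22 ± 0.668 and 6.57 ± 2.29 CPM and passed as higher only with the block (adjusted p = 0.0111 in edgeR). Of 7 receptors 2 passed, both lower and both with the block only, where 11.4% of all genes were lower with it. Tgfbr1, the type I receptor of TGF-β, had 99.5 ± 20.5 CPM in floxed and 51.5 ± 14.4 CPM in knock-out cells (adjusted p = 0.00116 with the block in edgeR), and the activin receptor gene Acvr1b 54.5 ± 8.10 and 36.4 ± 11.8 CPM (adjusted p = 0.0417).

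Of 13 genes of activation and processing, 0 passed without and 7 with the block, 2 higher and 5 lower, where 22.7% of all genes passed with it. Lrrc32, or GARP, which tethers latent TGF-β to the cell surface in place of an LTBP, had 46.2 ± 27.0 CPM in floxed and 159 ± 78.9 CPM in knock-out cells (SD, n = 3 each, adjusted p = 3.0e-04 with the block in edgeR). The convertase gene Pcsk6 had 24.3 ± 1.65 and 14.5 ± 1.83 CPM (adjusted p = 0.0109 with the block) and the gelatinase gene Mmp9 1.28 ± 0.332 and 0.589 ± 0.121 CPM (adjusted p = 0.0338 with the block). Of 6 matrix anchors, Fbn2, fibrillin 2, had at most 3 counts in any floxed library and 2.31 ± 1.00 CPM in knock-out cells. It passed the filter only through the knock-out libraries, so its call as higher is not counted as support. Of the 50 pathway genes whose counts reached 10 in each library 0 passed as higher, for which the share of all genes is not given here. Fbn1, the main microfibril protein that LTBPs bind, had 502 ± 135 and 389 ± 134 CPM (adjusted p = 0.0478 with the block), and Adamtsl2, which binds both fibrillin and LTBP1, 2.99 ± 3.27 and 0.430 ± 0.547 CPM (adjusted p = 0.00140 with the block).

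Of 5 soluble antagonists tested, 3 passed with the block only, all lower, where 11.4% of all genes were lower with it. Fst, follistatin, which traps activin, had 47.4 ± 25.5 CPM in floxed and 13.0 ± 10.3 CPM in knock-out cells (SD, n = 3 each, adjusted p = 0.00143 with the block in edgeR), Fstl3 9.07 ± 2.13 and 4.75 ± 0.717 CPM (adjusted p = 0.00932) and Fstl1 1808 ± 216 and 1270 ± 92.9 CPM (adjusted p = 0.0314). Of 17 target genes, 2 passed without the block, both lower, against 1.30% of all genes. With the block 4 were higher and 7 lower, against 11.3% and 11.4% of all genes. Klf10, a TGF-β-induced repressor, had 222 ± 7.94 and 71.2 ± 21.1 CPM (adjusted p = 0.0243 in edgeR) and Skil, a negative feedback gene, 156 ± 12 and 49.2 ± 15.7 CPM (adjusted p = 0.0294). Col3a1, a fibrillar collagen gene, had 945 ± 53.4 and 2704 ± 995 CPM and passed as higher with the block only (adjusted p = 0.00423). Of these 16 pathway genes, 14 lay outside the range of the other 3 knock-out libraries in the library labelled knock-out, 24 h, and Fbn1 and Fst lay within it. Of the 4 past the limit without the block, Fbn2 stood at 0.0385 CPM there, Klf10 at 212, Skil at 171 and Gdf15 at 67.3 CPM. Col3a1 stood at 936, Lrrc32 at 21, Tgfbr1 at 85.5 and Adamtsl2 at 6.28 CPM.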

How the data were processed

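Total RNA libraries of 2 genotypes at 6, 24, 48 and 72 h were analysed. Per the labels, the authors sequenced 50-base single-end reads (the methods of the study describe paired reads), used CASAVA 1.8.2 and TopHat2 2.0.8b with mm9, and deposited unnormalized HTSeq counts per gene symbol. HTSeq's version, annotation and strand setting are not given in the sources used here. HTSeq's summary counters were left out. HTSeq's counter for alignments that are not unique held 41.3% to 49.6% of the sum of gene counts and counters. Gapdh, which has many near-identical copies, had 1.89 to 7.69 CPM. The lncRNA tables were not used here. Floors cover counting error only.

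Counts were tested in R 4.3.3 with edgeR 4.0.16 (TMM, at least 10 counts and 15 in total, quasi-likelihood test, Benjamini-Hochberg adjustment over all genes tested) for genotype, log2 culture time and their interaction, over 6 libraries. Main tests had no block, since the study names none and describes limma. Alternatives were all 8 libraries, 7 libraries, time as a block, DESeq2 1.42.0, limma 3.58.1 on log2 CPM (offset 0.5) and log2 RPKM (offset 0.1), RLE scaling, other filters and leaving out each library. Blocked fits without each time were added after seeing the data. Same-time libraries correlated across genes in their deviations from the genotype means (r = 0.73, 0.57 and 0.86 at 6, 48 and 72 h), and the pairing comes from the culture times in the labels. No 2 libraries held identical counts. Tests were tried on simulated data. Lengths came from GENCODE M1 on mm9, which held 95.7% of the symbols.

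Members and lists were chosen with earlier results of these data known. Named genes were the members, Bmp2, Gapdh, in each pathway list up to 3 past the adjusted limit with or without the block by lowest p, and the 3 genes most like the member of largest SD. Genes overlapping a member and cell type markers are also named. Figures were drawn with matplotlib 3.10.9.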

Additional observations from a re-analysis of the deposited data

Results flagged for a closer look

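Ltbp1 in floxed cells had 234 CPM at 6 h, far below the other 3 floxed libraries at 378 to 398 CPM. It was the 1 group flagged among 18 groups of 4 libraries, and chance flags about 1 in 20 groups. The libraries of a group differ in culture time.

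The log2 ratio of knock-out to floxed cells at 24 h was 0.66 for Tgfb1 and 0.74 for Tgfbi, whereas it was below 0 for both at 6, 48 and 72 h. With 1 library per genotype and time this difference was not tested. Both ratios use the library labelled knock-out, 24 h.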

How the results depend on the processing

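Of 171 alternative values of the genotype fold change of the 9 genes, 152 kept their direction and their side of the adjusted limit, and of 108 values of the time slope 101 did. As 0 of the 9 genes passed in the main fits, keeping the side meant not passing, also in fits with fewer libraries. Of the other fold changes 14 passed the limit and 5 turned direction, and of the other slopes 5 passed and 2 turned. The members past the adjusted limit for genotype went from 0 to 4 with the replicate block of culture time and to 1 in DESeq2. The block without the 6, 48 or 72 h libraries gave 2, 4 and 3, and 2, 2 and 1 by the unadjusted rule, against 1, where 9.5%, 9.65% and 10.7% of all genes passed that rule. Other genes of the pathway past the limit went from 4 to 28 with the block (20, 26 and 20 without 6, 48 or 72 h), 12 in DESeq2, 7 over 7 libraries, 0 over all 8 and 0 with the block over all 8. Leaving out each library gave 0 to 7. For these fits and that over 7 libraries the share of all genes is not given here, so their pathway counts stand without a background. Members past the adjusted limit for time went from 0 to 4 in DESeq2 and 0 to 1 on leaving out each library. The genotype fold change turned without the knock-out 6 h library for Tgfb3 (-0.04), Ltbp4 (-0.10) and Inhba (0.02). It also turned for Inhba without the floxed 72 h library (0.50) and for Tgfb3 with the block without 6 h (-0.01). On leaving out each library it ranged from -0.04 to 0.22 for Tgfb3, -0.10 to 0.56 for Ltbp4 and -1.0 to 0.50 for Inhba. The slope of Tgfb2 turned without the floxed 6 h (-0.03) or 72 h library (-0.06), in a range of -0.06 to 0.14. The cause was not tested. A lone line per genotype and 1 library per time limit every result, and no count depth would replace repeated cultures. Tgfb2 and Inhba, with 46 to 861 reads, rest on the fewest reads.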
